A study of Homo sapiens and Mus musculus with 24 samples.

Results

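Enteroendocrine cells are the scattered hormone-secreting cells of the intestinal epithelium. They arise from crypt progenitors through a cascade of transcription factors, pack peptide hormones or serotonin into dense-core granules, and release them in response to luminal nutrients, microbial metabolites and stretch. In the colon they are mainly enterochromaffin cells, which make serotonin, and L cells, which make peptide YY, glucagon-like peptides and insulin-like peptide 5. A fixed set of 33 mouse genes of these cells is described here, out of 29307 genes in the mouse count tables. It held 9 lineage factors, 11 granule genes, 3 serotonin genes and 10 peptide hormones, chosen by gene symbol.

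The study purified EpCAM-positive epithelial cells from the colon of 4 Dnmt3a fl/fl control mice and 4 Dnmt3a ΔIEC mice at steady state and compared their RNA. Dnmt3a encodes a de novo DNA methyltransferase. All 8 mice were young adults and carried Dnmt3a alleles with loxP sites around several coding exons. The ΔIEC mice also carried Cre recombinase under the villin (Vil1) promoter, which is active across the intestinal epithelium and not in enteroendocrine cells alone, and the fl/fl controls had no Cre. The floxed mice were on a C57BL/6 background, and the Cre line came from a mixed C57BL/6J and SJL/J background, so the transgene and any SJL/J segments carried with it cannot be told apart from the deletion. Total RNA was sequenced from each mouse. Enteroendocrine cells were not sorted. A lower level of a gene in these bulk samples can mean fewer enteroendocrine cells or less RNA per cell. It can also mean less RNA from other cells in the sample, and these cannot be told apart.

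Counted fragments ranged from 16943626 to 24921248 per library, and levels are given as CPM, the fragments of a gene relative to a TMM-scaled library size. Fragments carried no molecular identifiers, so limits from low counts cover counting error only. Gene-level Dnmt3a was 84.7, 98.4, 90.8 and 102 CPM in fl/fl replicates 1 to 4 and 47.2, 46.1, 49.6 and 41.7 CPM in the ΔIEC replicates (log2 fold change -1.03 ± 0.09 SE, adjusted p = 0.000763, edgeR quasi-likelihood test, adjusted over all genes tested by Benjamini-Hochberg). Epithelial markers were high throughout, with Epcam at 1704 to 2460 CPM. The enteric neuron marker Hand2 was at most 0.0449 CPM in every library. The sum of all 10 neuron markers counted was 3.31 to 4.02 CPM in fl/fl mice and 4.89 to 6.62 CPM in ΔIEC mice. For 7 immune markers the sum was 4.94 to 9.35 CPM in fl/fl mice and 8.53 to 9.77 CPM in ΔIEC mice. For 8 stromal and vessel markers it was 14.9 to 26.0 and 15.5 to 19.5 CPM. The fl/fl library of replicate 2 stood apart from the other 7 on the first principal component, at 50.9 against -22.1 to 9.1, and it touches many values below.

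Of the 33 genes, 32 were in the tables and 30 passed the filter on low counts. Insm1, a zinc finger factor of early endocrine progenitors, was not analysed here, and Fev and Gip were listed but too low to be tested. Of the 30 genes tested, 1 changed between genotypes (adjusted p under 0.05): Cpe, which fell. Over all 14626 genes tested, 101 passed this threshold, 0.691% of genes, of which 13 were lower in ΔIEC mice, 0.0889% of genes. Another 4 members had an unadjusted p under 0.05, namely Vwa5b2, Scg2, Pyy and Pax6, all with lower values in ΔIEC mice. The 5 members are to be read against 14.1% of all genes with an unadjusted p under 0.05 in either direction, and 6.09% with one on the lower side. The count of members was also 5 in DESeq2, and 10 in limma-voom with sample weights. No share over all genes at an unadjusted p is given here for these 2 tools, so these counts cannot be judged. At an adjusted p under 0.05, DESeq2 called 2 members and 2.21% of the genes it adjusted. Limma-voom called 1 member and 2.47% of the genes tested. In 3 members, Cpe, Vwa5b2 and Nkx2-2, every ΔIEC mouse was below every fl/fl mouse, against 4.1% of all genes, and in 0 members every ΔIEC mouse was above every fl/fl mouse, against 6.16% of all genes.

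The members' log2 fold changes leaned to lower values without most of them passing the test. In 24 of 30 the fitted change was below 0, and the median was -0.27, whereas over all genes tested 50.6% were below 0 and the median was 0.00. Members share cells and libraries, so these counts are a description and carry no test. Without fl/fl replicate 2 the count was 26 of 30 and the median -0.35. Without fl/fl replicate 1, which had the highest chromogranin levels, it was 20 of 30 and the median -0.20. With ΔIEC replicate 1, 2, 3 or 4 left out, the count was 24 of 30 each time. The medians were -0.364, -0.228, -0.260 and -0.145 in that order. In limma-voom with sample weights it was 26 of 30 and the median -0.34, against a median of 0.01 over all genes. The 95% intervals reached a median of 0.60 log2 units to either side of the fitted value, and for 18 of the 29 members that did not pass the test the interval lay within 1 log2 unit of 0 on both sides.

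**Figure D1:**
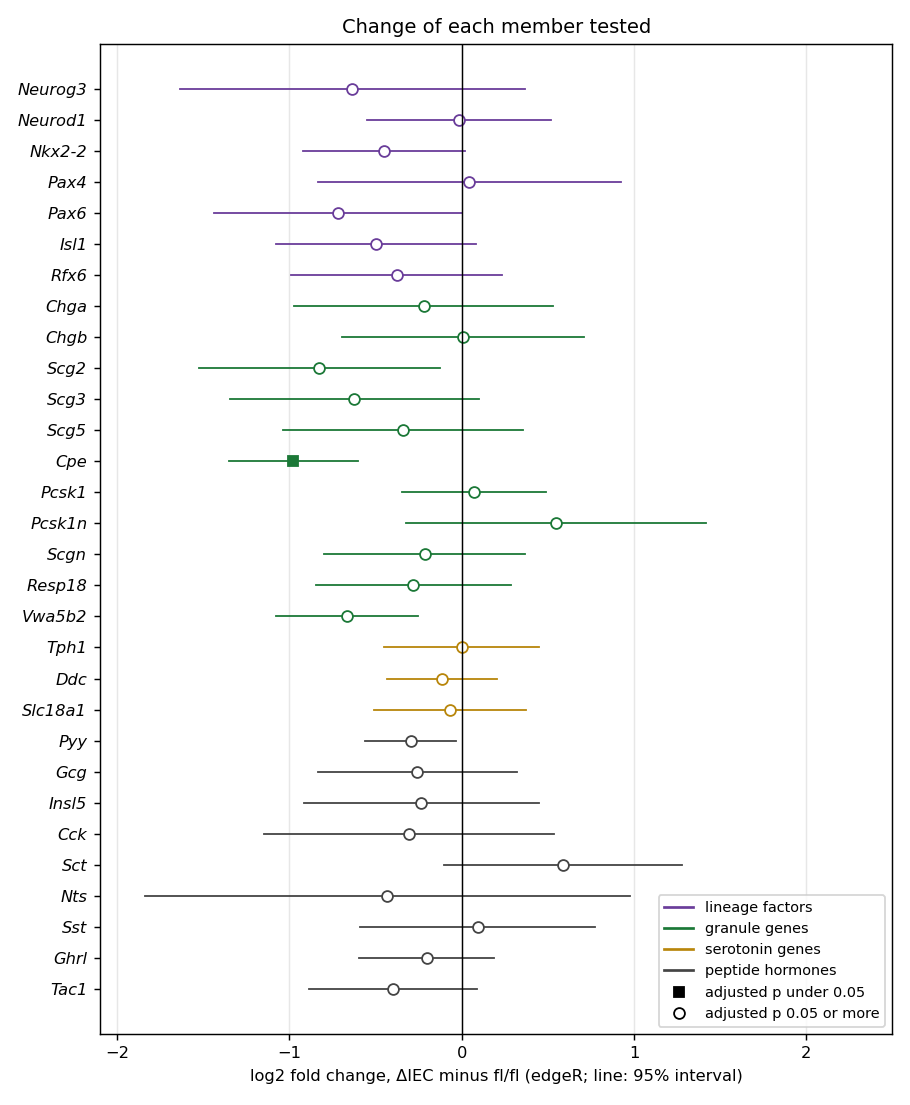
Log2 fold change between ΔIEC and fl/fl mice (x axis) for each of the 30 members tested (y axis), with the 95% interval of the edgeR fit as a line, coloured by class, and a filled square where the adjusted p was under 0.05. Only Cpe has a filled square, at -0.98, and 24 of the 30 points lie below 0.

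The lineage factors were transcripts of low abundance. They comprise Neurog3, the factor that commits crypt progenitors to the endocrine fate, its target Neurod1, and the homeodomain, LIM and winged-helix factors Nkx2-2, Pax4, Pax6, Isl1 and Rfx6 that act in endocrine precursors and subtypes. None of the 7 tested passed the threshold in edgeR, DESeq2 or limma-voom with sample weights, and 1 of the 7, Pax6, had an unadjusted p under 0.05 in edgeR. The fitted change was below 0 in 6 of 7, with a median of -0.45 on the log2 scale. The summed level of the 8 listed factors was 13.9, 9.98, 11.6 and 12.6 CPM in fl/fl replicates 1 to 4 and 10.8, 10.6, 9.77 and 7.54 CPM in the ΔIEC replicates. The groups overlapped in this sum only through fl/fl replicate 2. Exons of Nkx2-2, Neurog3 and Neurod1 overlap another annotated gene by 278, 273 and 201 bases, and their counts are uncertain to that extent.

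Pax6, a paired-box factor needed for glucagon-gene expression, was 2.45, 1.26, 2.54 and 1.78 CPM in fl/fl mice and 1.86, 1.33, 0.928 and 0.718 CPM in ΔIEC mice. The groups overlapped, since fl/fl replicates 2 and 4 were below ΔIEC replicate 1. The log2 fold change was -0.72 ± 0.33 SE (edgeR adjusted p = 0.355), and it was -0.88 without fl/fl replicate 2 (edgeR adjusted p = 0.227). Nkx2-2, a homeodomain factor of the enterochromaffin and other endocrine lineages, was 1.71, 1.84, 1.40 and 1.42 CPM in fl/fl mice and 0.928, 1.08, 1.36 and 1.30 CPM in ΔIEC mice. Its groups did not overlap, but the gap between the closest mice was small and the change of -0.45 ± 0.21 SE did not pass the test (edgeR adjusted p = 0.376).

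Neurog3 was 0.739, 0.420, 0.876 and 0.648 CPM in fl/fl mice and 0.766, 0.540, 0.124 and 0.224 CPM in ΔIEC mice. ΔIEC replicates 3 and 4 were the lowest of the 8 mice and replicates 1 and 2 lay within the fl/fl range, with a log2 fold change of -0.64 ± 0.45 SE (edgeR adjusted p = 0.561). Rfx6, which acts downstream of Neurog3, was 2.15 to 2.71 CPM in fl/fl mice and 2.46, 2.26, 1.79 and 0.898 CPM in ΔIEC mice, so that ΔIEC replicate 4 was again lowest. Isl1, a LIM-homeodomain factor of hormone-producing cells, was 0.970 to 1.63 CPM in fl/fl mice and 0.680 to 1.13 CPM in ΔIEC mice (log2 fold change -0.50 ± 0.26 SE, edgeR adjusted p = 0.424).

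Neurod1 did not share this lean. It was 4.29, 2.10, 2.41 and 3.56 CPM in fl/fl mice and 2.66, 3.39, 3.59 and 2.69 CPM in ΔIEC mice, a log2 fold change of -0.02 with a 95% interval of -0.55 to 0.52. Pax4, a paired-box factor of early endocrine precursors, was 0.420 to 1.25 CPM in fl/fl mice and 0.494 to 1.17 CPM in ΔIEC mice, and its interval of -0.84 to 0.93 allows a change of either sign. Fev, a factor of serotonergic cells, was counted in every library but at 2 to 11 fragments, which is 0.124 to 0.445 CPM, below the filter.

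**Figure D2:**
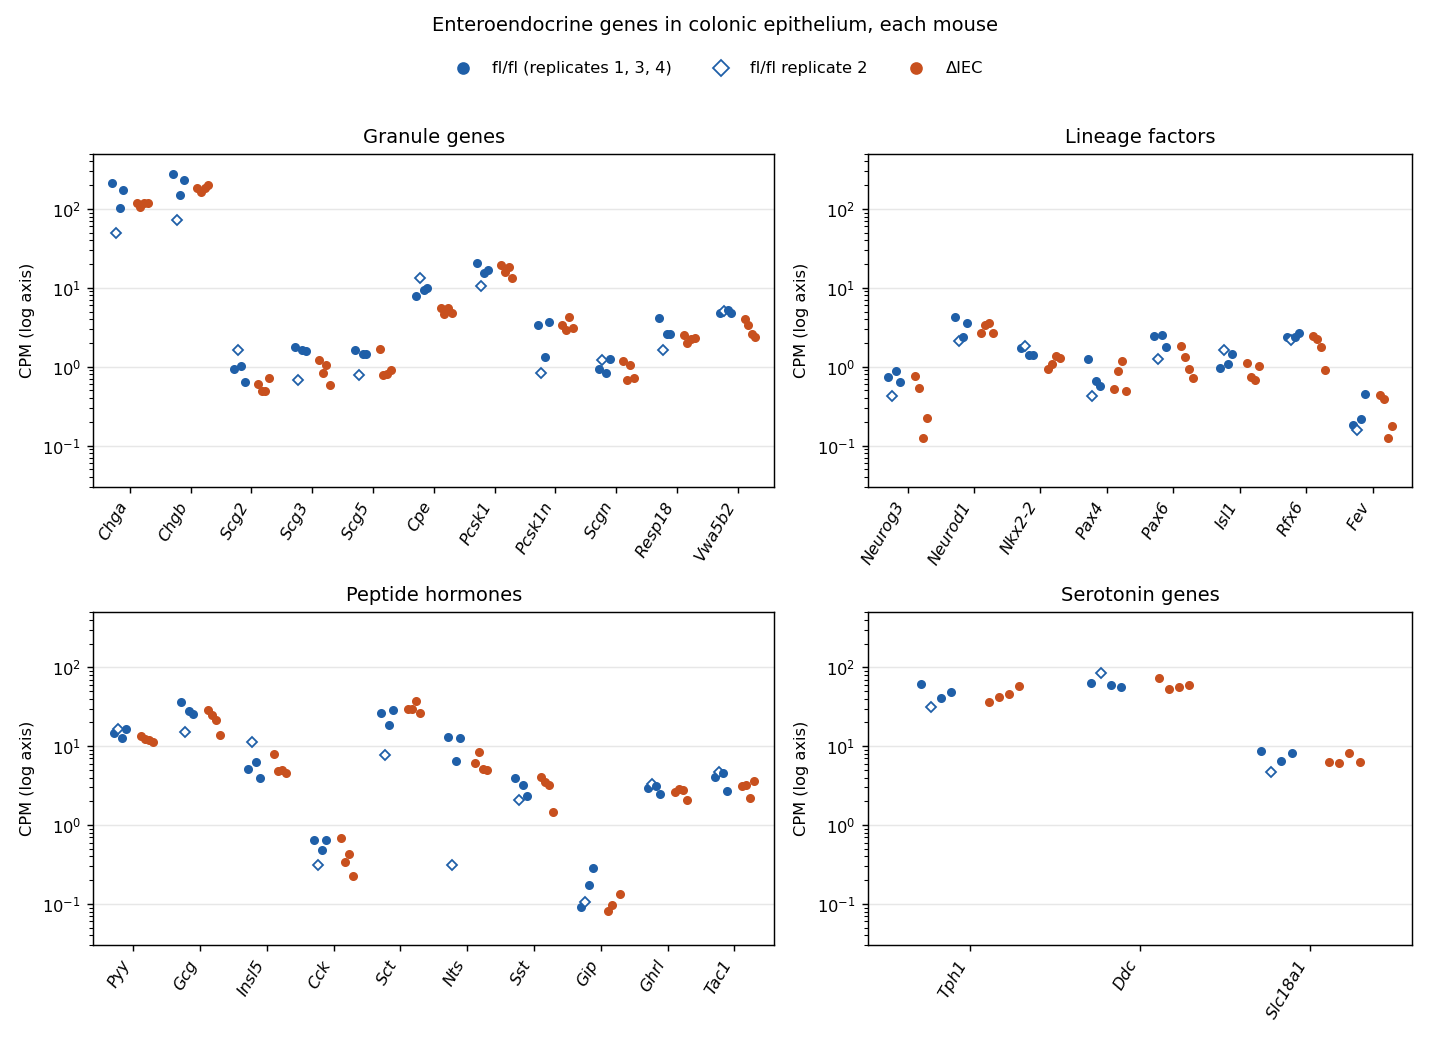
CPM on a log axis (y axis) of the 32 members in the tables (x axis), 1 point per mouse, in panels by class, with fl/fl mice in blue, fl/fl replicate 2 as an open diamond and ΔIEC mice in orange. The 0 of Gip in ΔIEC replicate 3 cannot be drawn. Chga and Chgb lie highest among the members, the lineage factors lie between 0.124 and 4.29 CPM, and fl/fl replicate 2 is the lowest fl/fl mouse for 19 of the 30 members tested.

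The granule genes spanned the widest range of levels. They encode the granins (Chga, Chgb, Scg2, Scg3 and Scg5), which help form dense-core granules, and the enzymes that cut and trim prohormones inside them (Pcsk1 and Cpe). Pcsk1n encodes an inhibitor of the convertase PCSK1, Scgn a calcium sensor of endocrine cells, and Resp18 a granule-associated protein. Of the 11 genes, all tested, 1 fell (Cpe), 10 did not pass the threshold, and the median log2 fold change was -0.28 with 8 of 11 below 0. Their summed level was 539, 157, 294 and 444 CPM in fl/fl mice and 344, 301, 339 and 350 CPM in ΔIEC mice, a range in fl/fl mice that held all 4 ΔIEC mice.

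Cpe encodes carboxypeptidase E, which removes basic residues from the ends of peptide intermediates after the convertases have cut. It lies at chr8:64592542-64693054 on the minus strand of GRCm38 (ENSMUSG00000037852). Cpe was 7.94, 13.1, 9.50 and 10.0 CPM in fl/fl replicates 1 to 4, a mean of 10.2 ± 2.17 (SD, n = 4), and 5.53, 4.62, 5.63 and 4.85 CPM in the ΔIEC replicates, a mean of 5.15 ± 0.498 (SD, n = 4). Every ΔIEC mouse was below every fl/fl mouse, and fl/fl replicate 2 was the highest of the 8. The log2 fold change was -0.98 ± 0.17 SE, a level in ΔIEC mice 0.508 times that in fl/fl mice, with an adjusted p of 0.0287 by edgeR.

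The size of the Cpe difference varied less than its call. DESeq2 gave an adjusted p of 3.37e-05 and limma-voom with sample weights 0.0101. When each mouse was left out in turn, the log2 fold change stayed between -1.08 and -0.83, and the edgeR adjusted p was under the threshold in 2 of 8 fits, those without fl/fl replicate 1 (0.0350) and without fl/fl replicate 2 (0.0296). It was 0.0766 without fl/fl replicate 3, 0.0773 without fl/fl replicate 4, and 0.0667, 0.128, 0.0813 and 0.0963 without ΔIEC replicates 1 to 4. These fits have 3 mice in 1 group.

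Vwa5b2, whose von Willebrand factor A domain protein has a less defined role, was the member with the next lowest p. It was 4.76, 5.09, 5.17 and 4.78 CPM in fl/fl mice and 4.03, 3.39, 2.60 and 2.38 CPM in ΔIEC mice, so the fl/fl mice lay close together and every ΔIEC mouse was below them. The log2 fold change was -0.67 ± 0.19 SE, and the adjusted p was 0.181 by edgeR, 0.0396 by DESeq2 and 0.0660 by limma-voom with sample weights. DESeq2 called 2.21% of the genes it adjusted and limma-voom 2.47% of the genes tested. In the GENCODE M21 annotation an exon of Vwa5b2 overlaps an antisense gene, Gm49748, by 334 bases, and the counting did not use strand, so reads of the pair cannot be told apart there.

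Scg2, the precursor of secretoneurin, was 0.924, 1.63, 1.01 and 0.648 CPM in fl/fl mice and 0.605, 0.491, 0.495 and 0.718 CPM in ΔIEC mice. The groups overlapped through fl/fl replicate 4 and ΔIEC replicate 4, and the change of -0.83 ± 0.32 SE did not pass the test (edgeR adjusted p = 0.283). It was -0.55 without fl/fl replicate 2, which had the highest level. Scg3, a granin that binds chromogranin A, was 1.75, 0.683, 1.62 and 1.58 CPM in fl/fl mice and 1.21, 0.835, 1.05 and 0.583 CPM in ΔIEC mice. Here fl/fl replicate 2 was the lowest fl/fl mouse, and without it the change went from -0.63 to -0.84 (edgeR adjusted p = 0.193), with every ΔIEC mouse below the other 3 fl/fl mice.

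**Figure D3:**
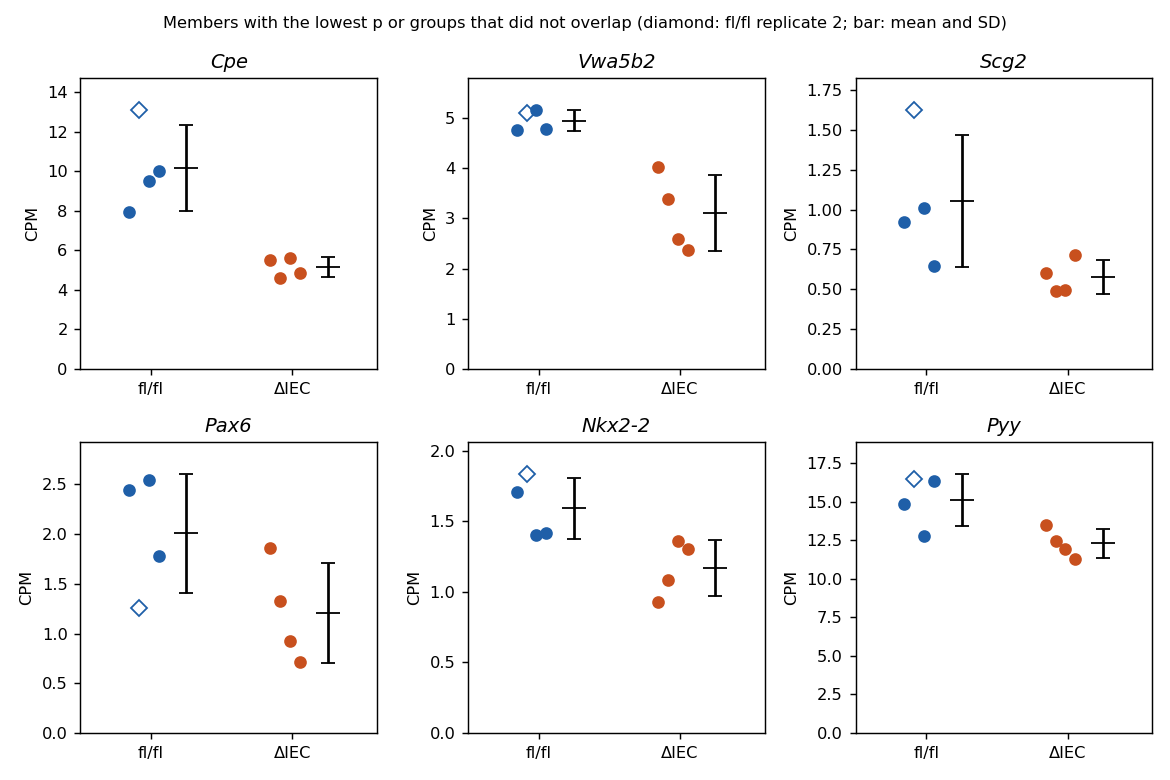
CPM (y axis, from 0) of Cpe, Vwa5b2, Scg2, Pax6, Nkx2-2 and Pyy in each mouse by genotype (x axis), with the mean and SD of 4 mice as a bar and fl/fl replicate 2 as a diamond. Cpe, Vwa5b2 and Nkx2-2 do not overlap between genotypes, and of the 6 genes only Cpe passed the threshold in edgeR.

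The chromogranins were the most abundant members per exon length, at 71.4 CPM per kb for Chga and 66.9 for Chgb in fl/fl mice. Chga, the general granule marker of endocrine cells, was 213, 48.95, 104 and 172 CPM in fl/fl replicates 1 to 4 and 118, 106, 119 and 118 CPM in the ΔIEC replicates. Chgb was 280, 72.0, 151 and 230 CPM in fl/fl mice and 186, 163, 184 and 203 CPM in ΔIEC mice. For both genes the 4 ΔIEC mice lay close together and inside the much wider fl/fl range. The log2 fold changes were -0.22 with a 95% interval of -0.97 to 0.53 for Chga and 0.00 with an interval of -0.70 to 0.71 for Chgb. Without fl/fl replicate 2 they were -0.50 (edgeR adjusted p = 0.260) and -0.26 (edgeR adjusted p = 0.497). In limma-voom with sample weights they were -0.55 (adjusted p = 0.238) and -0.35 (adjusted p = 0.427).

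The remaining granule genes had groups that overlapped. Pcsk1, prohormone convertase 1/3, was 10.6 to 20.4 CPM in fl/fl mice and 13.5 to 19.3 CPM in ΔIEC mice, with a log2 fold change of 0.07 and an interval of -0.34 to 0.49. Pcsk1n was 3.37, 0.840, 1.31 and 3.72 CPM in fl/fl mice and 3.39, 2.95, 4.33 and 3.05 CPM in ΔIEC mice (log2 fold change 0.55 ± 0.39 SE, edgeR adjusted p = 0.565), a gene with an antisense overlap of 135 bases with Eras. Scg5, which encodes a chaperone of the convertase PCSK2, was 0.788 to 1.62 CPM in fl/fl mice and 0.786 to 1.65 CPM in ΔIEC mice. Scgn and Resp18 had log2 fold changes of -0.22 ± 0.26 SE and -0.28 ± 0.26 SE, with edgeR adjusted p of 0.754 and 0.662.

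The serotonin genes did not pass the test in any of the 3 tools, and 0 of the 3 had an unadjusted p under 0.05 in edgeR, DESeq2 or limma-voom. Tph1 encodes the rate-limiting enzyme of serotonin synthesis outside the nervous system, Ddc the decarboxylase of the next step, and Slc18a1 the transporter that loads serotonin into granules. Tph1 was 61.7, 31.0, 40.5 and 49.4 CPM in fl/fl mice and 36.5, 42.5, 45.3 and 58.3 CPM in ΔIEC mice, with means of 45.6 CPM in both groups. The log2 fold change was 0.00 with a 95% interval of -0.45 to 0.45. Slc18a1 was 4.73 to 8.59 CPM in fl/fl mice and 6.04 to 8.22 CPM in ΔIEC mice, with an interval of -0.51 to 0.38. Ddc was 55.6 to 84.3 CPM in fl/fl mice and 52.9 to 73.7 CPM in ΔIEC mice, with an interval of -0.43 to 0.20. The summed level of the 3 genes was 107 to 134 CPM in fl/fl mice and 101 to 124 CPM in ΔIEC mice. In fl/fl replicate 2, Ddc was the highest of the fl/fl mice while Tph1 and Slc18a1 were the lowest, so the sum hides opposite shifts.

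The peptide hormones did not pass the test either. None of the 9 tested passed the adjusted threshold in edgeR, DESeq2 or limma-voom with sample weights, and 1, Pyy, had an unadjusted p under 0.05 in edgeR. The fitted change was below 0 in 7 of 9, with a median of -0.26. Per kb of exon, the order in fl/fl mice was Sct at 31.6, Pyy at 23.9, Gcg at 17.7, Insl5 at 9.23, Nts at 6.96, Sst at 4.81, Ghrl at 3.03, Tac1 at 1.19, Cck at 0.763 and Gip at 0.239 CPM per kb. The mean levels in ΔIEC mice had the same order, from 47.7 CPM per kb for Sct to 0.114 for Gip. The spread between fl/fl mice was wide for most of them, so that neighbours such as Sct, Pyy and Gcg, or Insl5 and Nts, overlapped in their ranges over the 4 mice. The summed level of the 10 genes was 108, 61.7, 83.5 and 96.6 CPM in fl/fl mice and 96.0, 90.5, 89.5 and 68.4 CPM in ΔIEC mice, and the groups overlapped.

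The L cell hormones were mostly a little lower in ΔIEC mice within overlapping groups. Pyy, which encodes peptide YY, was 14.8, 16.5, 12.8 and 16.3 CPM in fl/fl mice and 13.5, 12.5, 11.9 and 11.3 CPM in ΔIEC mice. The groups overlapped by fl/fl replicate 3 and ΔIEC replicate 1, and the log2 fold change was -0.30 ± 0.12 SE (edgeR adjusted p = 0.306). Gcg, the precursor of the glucagon-like peptides, was 36.9, 15.3, 27.6 and 25.9 CPM in fl/fl mice and 28.5, 24.6, 21.4 and 14.0 CPM in ΔIEC mice. Its lowest values were in fl/fl replicate 2 and ΔIEC replicate 4, and the change was -0.26 ± 0.26 SE (edgeR adjusted p = 0.699). Insl5, a peptide of colonic L cells, was 5.17, 11.2, 6.35 and 4.01 CPM in fl/fl mice and 8.03, 4.91, 4.95 and 4.62 CPM in ΔIEC mice. The sign of its change turned from -0.23 to 0.13 without fl/fl replicate 2, with edgeR adjusted p of 0.775 and 0.817.

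Sct and Nts varied widely among the fl/fl mice. Sct, which encodes secretin and is also made by enterochromaffin cells, was 26.1, 7.83, 18.5 and 29.2 CPM in fl/fl mice and 29.4, 30.1, 37.5 and 26.1 CPM in ΔIEC mice. It had the highest fitted change of the 30 members, 0.59 ± 0.31 SE (edgeR adjusted p = 0.430), which became 0.32 without fl/fl replicate 2. Nts, which encodes neurotensin, was 13.1, 0.315, 6.57 and 12.8 CPM in fl/fl mice and 6.05, 8.35, 5.07 and 4.94 CPM in ΔIEC mice. Its interval of -1.84 to 0.98 was the widest of the members, and without fl/fl replicate 2 the change was -0.83 (edgeR adjusted p = 0.193).

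The other hormones were low. Tac1, the precursor of substance P, was 2.71 to 4.73 CPM in fl/fl mice and 2.23 to 3.64 CPM in ΔIEC mice (log2 fold change -0.40 ± 0.22 SE, edgeR adjusted p = 0.442). Sst, the somatostatin gene of D cells, was 2.10 to 3.93 CPM in fl/fl mice and 1.48 to 4.07 CPM in ΔIEC mice, and Ghrl, the ghrelin gene, was 2.51 to 3.31 and 2.06 to 2.90 CPM. Cck, the cholecystokinin gene, was 0.315 to 0.648 CPM in fl/fl mice and 0.224 to 0.686 CPM in ΔIEC mice. Gip, a hormone of upper small intestinal K cells, had 2, 2, 4 and 7 fragments in fl/fl mice and 2, 2, 0 and 3 in ΔIEC mice. The count of 0 in ΔIEC replicate 3, among 16943626 fragments, allows a level of up to 0.185 CPM.

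The members' spread among fl/fl mice was smaller without replicate 2, and so was that of all genes tested. The median coefficient of variation of the 30 members was 28.9% over the 4 fl/fl mice, 20.3% over the 3 without replicate 2, and 19.8% over the 4 ΔIEC mice, whereas over all genes tested these were 15.1%, 10.9% and 13.7%. Fl/fl replicate 2 was the lowest fl/fl mouse for 19 of 30 members and the highest for 9, against 36.3% and 32.8% of all genes tested. It was more than 1.5 times below the mean of the other 3 for 17 members, against 10.1% of genes, and more than 1.5 times above it for 2 members, Insl5 and Scg2, against 8.48% of genes.

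The members low in fl/fl replicate 2 came from all 4 classes. Its level relative to the mean of the other 3 fl/fl mice was 0.0291 for Nts, 0.300 for Pcsk1n, 0.301 for Chga, 0.318 for Sct, 0.327 for Chgb, 0.507 for Gcg, 0.613 for Tph1 and 0.614 for Neurod1. The 9 members highest in it among fl/fl mice were Insl5 at 2.16 times the others, Scg2 at 1.89, Cpe at 1.43, Ddc at 1.41, Isl1 at 1.39, Tac1 at 1.24, Nkx2-2 at 1.22, Ghrl at 1.15 and Pyy at 1.13. Regional genes moved with this library. The 6 listed HOX genes of the distal colon were between 1.92 and 2.73 times the other fl/fl mice, with a sum of 362 CPM against 141 to 219 CPM, and the single colonocyte gene Car1, a carbonic anhydrase, was 0.243 times the others. The absorptive colonocyte list as a whole was highest in this library, with a sum of 17064 CPM against 12544 to 13957 CPM in the other fl/fl mice, as was the goblet cell list, with 34942 against 22623 to 30257 CPM. The part of gut position or of any other feature of this library in the members' values was not tested.

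**Figure D4:**
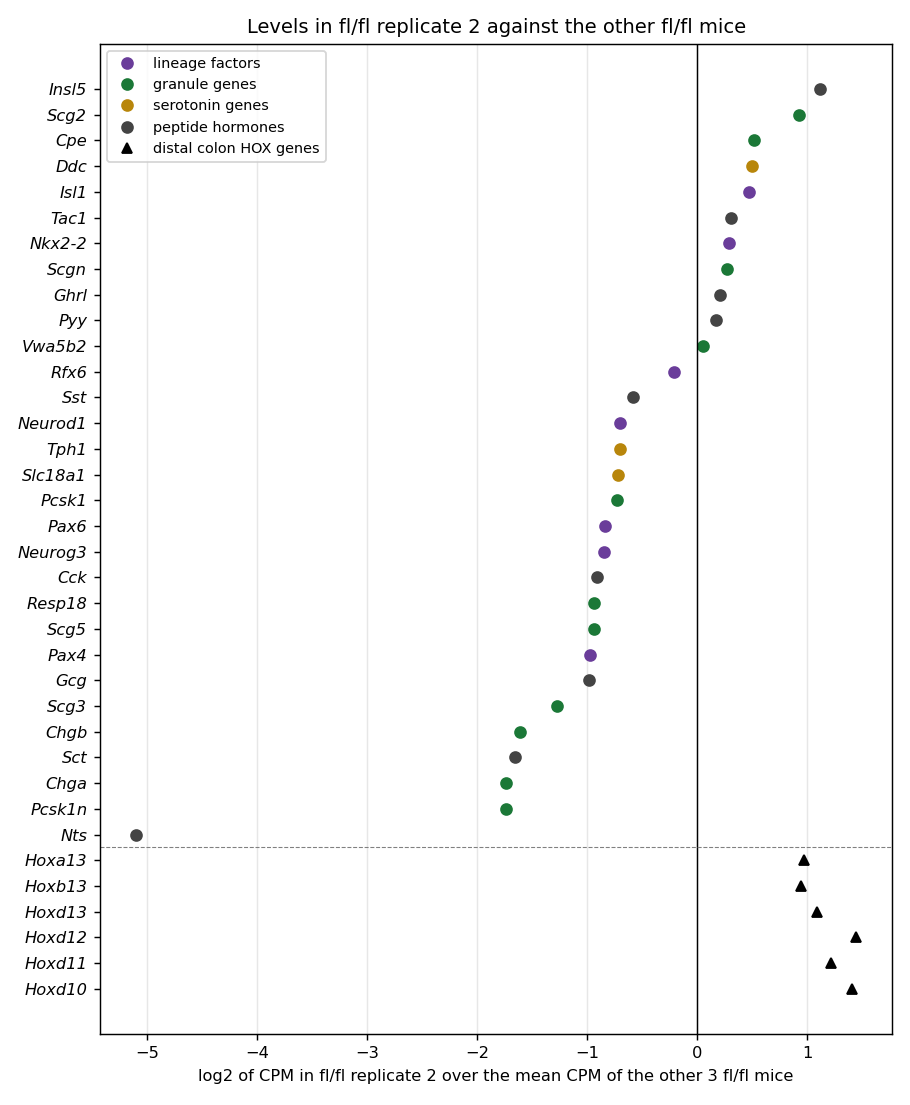
Log2 of the CPM in fl/fl replicate 2 over the mean CPM of the other 3 fl/fl mice (x axis) for the 30 members tested, coloured by class and sorted, and for 6 HOX genes of the distal colon (y axis). Nts lies furthest to the left, at 0.0291 times the others, Insl5 is the highest member at 2.16 times, and the 6 HOX genes all lie above 0.

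The distal HOX sum was 218 to 268 CPM in the 4 ΔIEC mice, between fl/fl replicate 2 and most of the other fl/fl mice, so the fit was repeated with its log2 value as a covariate, an alternative chosen after the data were seen. With it, 19 of 30 members had a fitted change below 0 and the median was -0.20. Cpe had a log2 fold change of -1.05 (edgeR adjusted p = 0.00582) and was again the 1 member past the threshold. Over all genes in this fit, 226 of 15177 passed the threshold, against 101 of 14626 in the fit without the covariate.

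Genes of the same cells outside the set were taken from lists of regulators, secretory machinery, receptors and further peptides. Of 8 other endocrine lineage regulators tested, 1 rose, St18, 0 fell, and the median log2 fold change was -0.30. St18, a zinc finger factor related to Myt1, was 5.36, 6.36, 5.39 and 5.59 CPM in fl/fl mice and 14.1, 11.7, 11.3 and 8.71 CPM in ΔIEC mice (log2 fold change 1.01 ± 0.16 SE, edgeR adjusted p = 0.0176). All ΔIEC mice were above all fl/fl mice. Etv1, by contrast, was 1.27 to 1.57 CPM in fl/fl mice and 0.540 to 1.09 CPM in ΔIEC mice without passing the test (edgeR adjusted p = 0.212, DESeq2 0.208, limma-voom 0.0408).

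Of 22 other peptide processing and exocytosis genes tested, 0 passed the threshold in edgeR, 1 had an unadjusted p under 0.05, and the counts past the threshold were 0 in DESeq2 and 1 in limma-voom. The 1 in edgeR was Snap25, a membrane fusion protein, at 4.41 to 5.73 CPM in fl/fl mice and 3.32 to 4.07 CPM in ΔIEC mice (edgeR adjusted p = 0.227). Of 3 other peptide messengers tested, 0 passed in edgeR, DESeq2 or limma-voom and 0 had an unadjusted p under 0.05 in edgeR, and 4 of the 14 listed (Npy, Adcyap1, Ins1 and Ins2) were at 0 in all 8 libraries.

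The receptors with which endocrine cells sense their surroundings held the values that were furthest apart. Of 16 listed, 14 were counted and 7 passed the filter on low counts. Of these 7, 1 rose, Ffar3, and 0 fell in edgeR. An unadjusted p under 0.05 was found for 5, 3 lower and 2 higher in ΔIEC mice, against 14.1% of all genes. Ffar3, 1 of the 5, met the filter through the ΔIEC mice, where its level was higher. These counts are therefore a description and carry no test of the list. DESeq2 called 3 (Ffar3, Olfr78 and Piezo2) and limma-voom with sample weights 3 (Ffar3, Piezo2 and Abcc8). Over all genes these tools called 2.21% of those adjusted and 2.47% of those tested. Ffar3, a receptor for short-chain fatty acids, was 0.416, 0.473, 0.526 and 1.05 CPM in fl/fl mice and 2.38, 3.73, 3.15 and 2.60 CPM in ΔIEC mice (log2 fold change 2.23 ± 0.30 SE, edgeR adjusted p = 0.00732). Olfr78, an olfactory receptor found in enterochromaffin and other sensory cells, was 4.85, 10.1, 7.49 and 3.97 CPM in fl/fl mice and 3.27, 3.29, 2.78 and 2.38 CPM in ΔIEC mice. Piezo2, a mechanically gated channel of enterochromaffin cells, was 6.42, 17.3, 7.10 and 6.15 CPM in fl/fl mice and 5.20, 2.21, 3.34 and 3.14 CPM in ΔIEC mice. The groups of Olfr78 and Piezo2 did not overlap, as in 4.1% of all genes on the lower side. Their changes of -1.16 ± 0.28 SE and -1.40 ± 0.37 SE did not pass the test (edgeR adjusted p = 0.140 and 0.168). Both genes were highest in fl/fl replicate 2, and without it the changes were -0.89 and -0.91 (edgeR adjusted p = 0.138 and 0.149). DESeq2 called both, with adjusted p of 0.00608 and 0.00944, and limma-voom with sample weights gave 0.107 and 0.0383. Abcc8, a subunit of ATP-sensitive potassium channels, was 8.31, 4.36, 8.67 and 8.70 CPM in fl/fl mice and 5.65, 4.62, 5.50 and 3.77 CPM in ΔIEC mice, overlapping through fl/fl replicate 2 (log2 fold change -0.63 ± 0.23 SE, adjusted p = 0.270 in edgeR and 0.0355 in limma-voom).

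**Figure D5:**
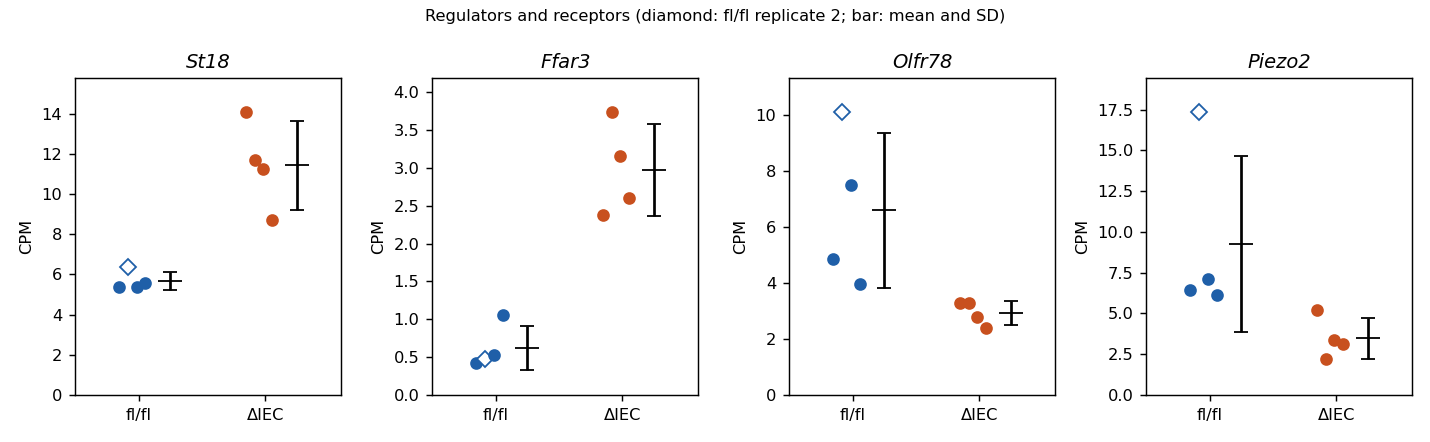
CPM (y axis, from 0) of St18, Ffar3, Olfr78 and Piezo2 in each mouse by genotype (x axis), with the mean and SD of 4 mice as a bar and fl/fl replicate 2 as a diamond. St18 and Ffar3 are higher in every ΔIEC mouse, and Olfr78 and Piezo2 are lower in every ΔIEC mouse without passing the threshold in edgeR.

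Markers of other cell types were set beside these values. Of 6 tuft cell markers tested, 5 rose (Pou2f3, Dclk1, Trpm5, Avil and Alox5ap), and the summed level of the list was 41.3 to 51.7 CPM in fl/fl mice and 130 to 156 CPM in ΔIEC mice. Tuft cells are another rare chemosensory epithelial type, and their part in the higher St18 and Ffar3 was not tested. Of 2 enteric neuron markers tested, 1 rose, Chat, which tuft cells also express (log2 fold change 1.85 ± 0.23 SE, edgeR adjusted p = 0.00401). In edgeR, 0 genes passed the threshold among 8 epithelial markers, 8 absorptive colonocyte, 7 goblet cell, 7 stem and cycling cell, 2 glial, 3 immune, 6 stromal, 3 small intestinal and 6 distal colon genes tested. At an unadjusted p under 0.05 these lists held 2, 0, 1, 0, 0, 1, 1, 0 and 0 genes in that order. DESeq2 and limma-voom each called 1 gene in the immune list, Ptprc (higher in ΔIEC mice), and 0 in the others. Of the 3 immune genes tested, 2 had a fitted change below 0 in edgeR, and the cell source of Ptprc was not tested. The summed level of the 10 enteric neuron markers was 3.31 to 4.02 CPM in fl/fl mice and 4.89 to 6.62 CPM in ΔIEC mice, and 8 of the 10 were under 1 CPM in every library.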

How the data were processed

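RNA of EpCAM-positive colonic epithelial cells of 8 mice was sequenced as paired reads from a stranded total RNA kit. Per the submitters' processing notes, reads were trimmed with Trim Galore 0.4.4 and aligned with STAR 2.5.2b to GRCm38. The authors deposited whole-number counts per gene from featureCounts, which the notes give as version 1.5.2 and the file headers as 1.6.4, with strand setting 0, so a gene and an antisense partner cannot be told apart where exons overlap (7 members). Every gene in the tables has at least 2 exon intervals. Caco-2 counts were not used here.

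Genotypes were taken from the labels. The members and lists were chosen with earlier results of these data known. All 33 members are named, with counts for other lists, the genes past the threshold (at most 2 highest and 2 lowest), and otherwise examples chosen after their values were seen. Genes were filtered with filterByExpr, scaled by TMM and tested with edgeR 4.0.16 (quasi-likelihood F test, Benjamini-Hochberg adjustment over all genes, threshold 0.05) in R 4.3.3. CPM use TMM library sizes, intervals are 95%, and SDs are between mice. SEs and intervals of edgeR were derived from the log2 fold change and the p of the F test. P-values measure the spread between these mice. No replicate libraries agreed within sampling noise (chi-square per degree of freedom 10.7 to 87.7). Alternatives were DESeq2 size factors, upper-quartile scaling, no filter, DESeq2 1.42.0, limma-voom 3.58.1 with sample weights, leaving out each mouse, and a HOX covariate added after the data were seen. On simulated counts with 200 of 14626 genes changed, edgeR recovered 73.5% of changes of 1 log2 unit and 96.5% of changes of 2. The simulation drew genes independently, at all levels of expression, and held no outlying library, so it does not measure recovery for the members. Of the marker lists, 2 genes are not reported here. Summaries and plots used matplotlib 3.10.9 and pandas 2.3.3 under Python 3.11.15. Depth was 16943626 to 24921248 fragments per library.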

Additional observations from a re-analysis of the deposited data

Results flagged for a closer look

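In 82 groups of 4 mice (2 genotypes for the 32 members in the tables, the other genes past the threshold and Dnmt3a), the highest or lowest mouse lay far from the other 3 by Dixon's test in 7. Chance flags about 1 in 20 groups. Among the members, Scg3 in fl/fl replicate 2 was low at 0.683 CPM against 1.58 to 1.75 in the other fl/fl mice. Scg5 in ΔIEC replicate 1 was high at 1.65 CPM against 0.786 to 0.898, and in the same mouse Insl5 was high at 8.03 CPM against 4.62 to 4.95. Slc18a1 in ΔIEC replicate 3 was high at 8.22 CPM against 6.04 to 6.37. Chga in ΔIEC replicate 2 was low at 106 CPM against 118 to 119, a small gap among mice that were otherwise nearly equal. Among the other genes, Pou2f3 in ΔIEC replicate 4 was low at 3.95 CPM against 4.70 to 4.84, and Trpm5 in fl/fl replicate 4 was high at 16.6 CPM against 12.6 to 13.2.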

How the results depend on the processing

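Over all genes, the 101 past the threshold became 98 with DESeq2 size factors, 96 with upper-quartile scaling, 115 without the filter, 352 in DESeq2, 361 in limma-voom with sample weights, 226 with the HOX covariate and 45 to 126 with 1 mouse left out. Among members, and among granule genes, the 1 past the threshold became 2 in DESeq2 (Cpe and Vwa5b2) and 0 to 1 with 1 mouse left out, with 0 in 6 of the 8 such fits. Lineage factors, serotonin genes and peptide hormones stayed at 0 in all 14 alternatives. Cpe kept its direction in all of them, with adjusted p from 3.37e-05 to 0.128. Of the 30 members tested, 19 kept the sign of the log2 fold change throughout. Leaving out 1 mouse gave ranges that crossed 0 for Neurod1 (-0.16 to 0.18), Pax4 (-0.20 to 0.43), Chga (-0.50 to 0.092), Chgb (-0.26 to 0.28), Pcsk1 (-0.077 to 0.22), Tph1 (-0.15 to 0.18), Ddc (-0.22 to 0.022), Slc18a1 (-0.21 to 0.044), Insl5 (-0.46 to 0.13) and Sst (-0.083 to 0.33). Limma-voom turned Pax4 to -0.075, Chgb to -0.35, Pcsk1 to -0.11 and Insl5 to 0.055, the filter left out turned Tph1 to 0.008, and the scalings moved Chgb to -0.001 and -0.014. The HOX covariate turned Neurod1 to 0.045, Chga to 0.041, Tph1 to 0.084, Slc18a1 to 0.009 and Nts to 0.21. The cause of these turns was not tested. The scalings moved the median of all genes by less than 0.1 (log2). No paired analysis was possible because the mouse labels give no replicate numbers or pairing, and the numbers used here follow the accession order and tie no fl/fl mouse to a ΔIEC mouse.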

Other observations

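Ratios of fragments between members within a mouse were computed for 8 pairs, chosen after the values were seen, so they are a description with no test. Over the 8 mice, Chgb per Chga spanned 1.30 times from lowest to highest and Sct per Chga 2.58 times, less than either gene's level (3.89 times for Chgb, 4.80 for Sct and 4.35 for Chga). The other ratios spanned 2.20 to 12.2 times, and in each of them at least 1 of both genes varied less than the ratio. Chgb per fragment of Chga was 1.32, 1.47, 1.45 and 1.34 in fl/fl mice and 1.57, 1.53, 1.56 and 1.72 in ΔIEC mice. Fl/fl replicate 2, lowest in both genes, had the highest of the fl/fl ratios, 1.47. Sct per fragment of Chga was 0.123, 0.160, 0.178 and 0.170 in fl/fl mice and 0.248, 0.282, 0.317 and 0.221 in ΔIEC mice. Both ratios were higher in 4 of 4 ΔIEC mice than in every fl/fl mouse. The other 6 ratios (Tph1, Nts, Cpe and Pcsk1 per Chga, Insl5 and Pyy per Gcg) overlapped between genotypes. Cpe per fragment of Chga was 0.268 in fl/fl replicate 2 and 0.0373 to 0.0914 in the other 7 mice. Nts per fragment of Chga was 0.00644 in fl/fl replicate 2 and 0.0417 to 0.0784 in the other 7 mice, and Insl5 per fragment of Gcg was 0.732 in fl/fl replicate 2 and 0.140 to 0.330 in the other 7.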
